A study of Mus musculus with 9 samples.

Results

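The Hox genes are the homeobox genes of the 4 mouse Hox clusters, Hoxa, Hoxb, Hoxc and Hoxd. They were taken as every gene of the array annotation named Hox, a cluster letter and a paralog number, and each was represented by its brightest probe set, the one with the highest mean over all arrays. This gave 33 of the 18193 genes measured: 9 of the 11 Hoxa genes in the RefSeq gene table, 9 of the 10 Hoxb genes, 7 of the 9 Hoxc genes and 8 of the 9 Hoxd genes. The other 6 genes of that table were not analysed here.

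The cells were cardiomyocytes differentiated from mouse embryonic stem cells and sampled at day 10, day 20 and day 30, with 3 one-colour 3 prime expression arrays a day and 9 in all. Every group shared 1 cell line, synp, made from R1 ES cells of the background 129X1 x 129S1, in which the Ncx1 promoter drives a puromycin resistance gene (PAC). All groups also shared 5 cytokines, namely FGF10, bFGF, VEGF, BMP4 and Activin A, and the addition of puromycin from day 7, which removes cells that do not use that promoter, and the labels give age as the one difference between the groups. The labels number the arrays of each day 1 to 3 without saying whether they were separate differentiations, so the p-values rest on the spread among the arrays of a day, and that spread may be technical.

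Hox proteins are transcription factors that give position along the head-to-tail axis of the embryo. In each cluster the genes lie in the order of their expression along that axis: low paralog numbers are used first and reach far forward, into the hindbrain and the pharyngeal arches, and high numbers are used late, in the tail, hindgut and limbs. Retinoic acid opens the clusters from the low-numbered end, Polycomb complexes hold unused parts silent, and Pbx and Meis proteins bind DNA together with Hox proteins; in the early heart, low-numbered Hox genes mark progenitors that respond to retinoic acid.

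The promoters of 5 members are shown because the results turn on these genes. Hoxd8 and Hoxa5 were the members called between the ages, Hoxa5 in its brightest probe set alone. Hoxb4, Hoxa2 and Hoxa3 differed among arrays of the same age. Each is the 250 bases before the gene's RefSeq start (build GRCm38.p6), 5′ to 3′ on the gene's strand. The RefSeq span of Hoxa3 contains Hoxa4 and Hoxa5, so the Hoxa3 window lies beyond both of them. Which start of Hoxa3 these cells use was not tested. Capitals mark matches to motifs searched on both strands.
Hoxd8 (chr2:74704365-74704614, forward strand): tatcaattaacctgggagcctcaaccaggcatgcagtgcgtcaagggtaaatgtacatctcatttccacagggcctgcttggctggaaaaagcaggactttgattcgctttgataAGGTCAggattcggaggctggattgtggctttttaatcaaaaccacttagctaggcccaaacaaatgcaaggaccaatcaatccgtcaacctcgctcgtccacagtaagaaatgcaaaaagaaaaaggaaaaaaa
Hoxa5 (chr6:52204588-52204837, reverse strand): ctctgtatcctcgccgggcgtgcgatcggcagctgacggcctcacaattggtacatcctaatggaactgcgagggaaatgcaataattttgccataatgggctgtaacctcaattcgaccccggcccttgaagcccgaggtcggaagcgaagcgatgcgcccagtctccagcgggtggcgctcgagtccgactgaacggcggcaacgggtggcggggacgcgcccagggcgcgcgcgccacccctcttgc
Hoxb4 (chr11:96318017-96318266, forward strand): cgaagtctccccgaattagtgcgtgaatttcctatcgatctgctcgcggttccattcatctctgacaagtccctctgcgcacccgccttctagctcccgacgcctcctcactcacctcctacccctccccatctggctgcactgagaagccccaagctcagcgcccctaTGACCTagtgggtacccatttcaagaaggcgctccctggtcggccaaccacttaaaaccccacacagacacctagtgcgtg
Hoxa2 (chr6:52164832-52165081, reverse strand): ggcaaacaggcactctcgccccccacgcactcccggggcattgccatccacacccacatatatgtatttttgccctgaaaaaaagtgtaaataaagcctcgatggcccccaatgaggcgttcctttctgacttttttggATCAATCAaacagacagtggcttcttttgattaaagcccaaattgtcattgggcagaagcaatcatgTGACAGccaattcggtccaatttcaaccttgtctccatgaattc
Hoxa3 (chr6:52213068-52213317, reverse strand): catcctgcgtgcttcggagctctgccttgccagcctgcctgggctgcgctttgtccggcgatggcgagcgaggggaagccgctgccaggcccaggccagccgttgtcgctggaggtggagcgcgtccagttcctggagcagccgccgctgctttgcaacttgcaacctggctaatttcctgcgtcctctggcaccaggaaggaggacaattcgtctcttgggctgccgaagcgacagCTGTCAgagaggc

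The capitals in Hoxd8 and Hoxb4 are the retinoic acid receptor half-site AGGTCA, on the gene strand of Hoxd8 135 to 130 bases before the start, and on the other strand of Hoxb4 81 to 76 bases before it. Of all 32851 windows in the RefSeq promoter table, 14% held this motif, as did 5 of the 21 windows of the 19 members in the table. Hoxa2 held the PBX-HOX motif TGATNNAT on the other strand and the MEIS motif TGACAG on the gene strand, 44 to 39 bases before the start, and Hoxa3 held the MEIS motif on the other strand. The PBX-HOX motif was in 7.68% of all windows and 3 of the 21 member windows, and the MEIS motif in 15.9% and 2 of 21. The CDX motif TTTATG (10.8% of all windows, 3 of 21) and the TATA motif TATAAA (12.4%, 2 of 21) were in none of the 5 windows shown, nor were the direct repeats AGGTCANNAGGTCA and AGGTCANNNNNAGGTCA, which contain the half-site and were each in 0.00913% of all windows and 0 of 21. The Hoxa5 window held none of the motifs searched. Such a match describes the letters of the window and is not evidence of binding. Hoxb2, Hoxb3 and Hoxb5 have no window in the table.

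Most Hox genes had a low signal, and few moved with age. Over the 9 arrays the median Hox gene had a mean log2 signal of 4.34, against 6.63 for the median of all genes. A rough guide to low signal was taken from 129 genes of other tissues (olfactory and vomeronasal receptors, keratin-associated proteins and beta-defensins), whose 95th percentile was 5.26 on the log2 scale. Probe sets differ in affinity, so this level does not decide whether a gene is expressed. Of all genes, 65.0% had a mean over the 9 arrays above it. The Hox genes were counted by another rule, by arrays and days, so the counts do not compare directly with that share. Of the Hox genes, 10 of 33 had all 3 arrays above it on at least 1 day and 7 had them above it on all 3 days, while 22 lay below it in all 9 arrays and Hoxa3 lay above it in 5 arrays.

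The 7 that stayed above it were Hoxa5, Hoxa7, Hoxa9, Hoxb2, Hoxb3, Hoxc6 and Hoxc9. Hoxd8 and Hoxd9 were above it on 2 days and Hoxb4 on 1. At the 90th percentile of the same reference genes 12 members were above the level on at least 1 day, and at the 99th percentile 2. Members above the level were found at every position: 2 of the 7 anterior genes (paralog groups 1 to 3), 5 of the 12 central genes (groups 4 to 8) and 3 of the 14 posterior genes (groups 9 to 13) were above the level on at least 1 day. By cluster these were 3 of 9 Hoxa, 3 of 9 Hoxb, 2 of 7 Hoxc and 2 of 8 Hoxd genes. In RNA from whole cultures, fewer cells that express a gene and less of its RNA per cell cannot be told apart.

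**Figure D1:**
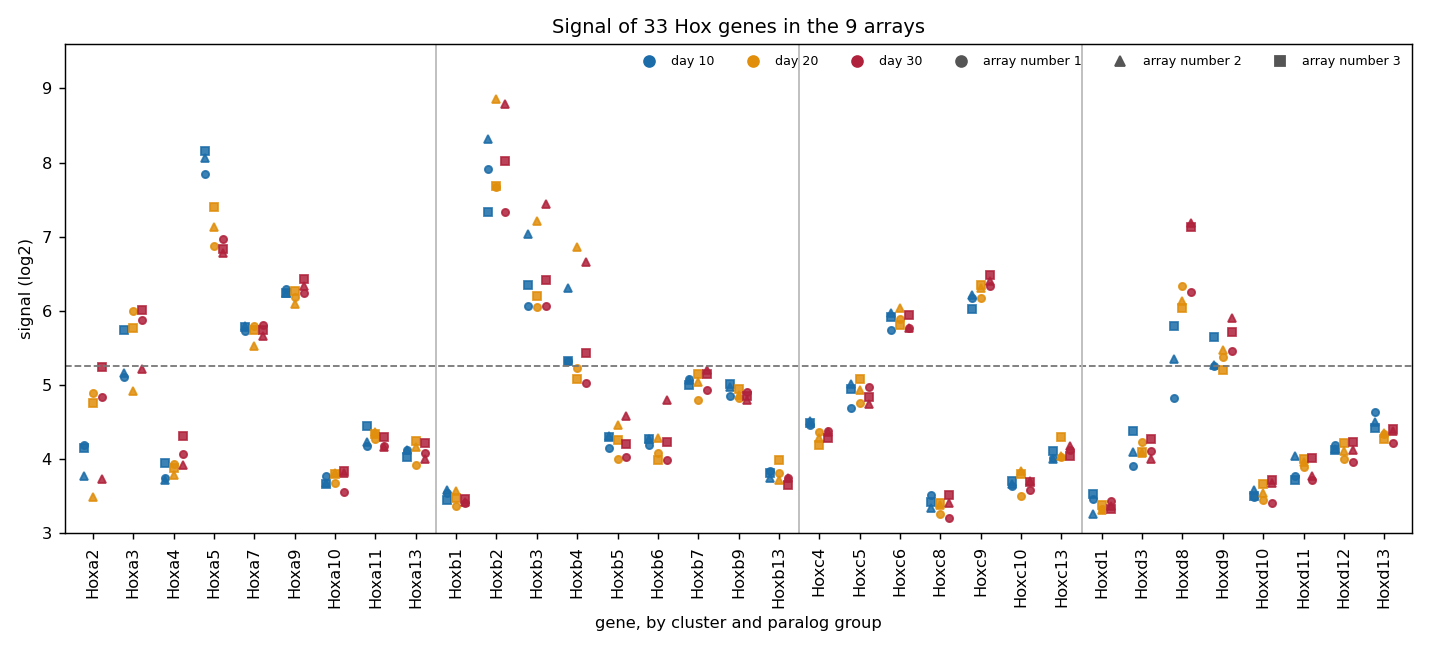
The log2 signal of each of the 33 Hox genes in the 9 arrays, ordered by cluster and paralog group, with colour for the day and marker shape for the number of the array in the labels. The dashed line is the 95th percentile of the reference genes, 5.26; most genes lie below it, Hoxa5 is highest at day 10, Hoxd8 is highest at day 30, and the arrays numbered 2 stand apart for Hoxb2, Hoxb3, Hoxb4 and Hoxa2.

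Between day 10 and day 30, the brightest probe set rose for 1 Hox gene and fell for 1. The other probe set of the gene that fell did not follow, but its signal lay below the reference level in every array. Hoxd8, a central gene of the Hoxd cluster, rose, and Hoxa5, a central gene of the Hoxa cluster known for its role in the respiratory tract and the skeleton of the neck and thorax, fell. These 2 of 33 members passed an adjusted p of 0.05 in limma's test, whereas 21.1% of all genes did (11.2% higher and 9.92% lower at day 30). At an unadjusted p under 0.05 there were 4 of 33, against 34.2% of all genes. The median difference was 0.01 over the Hox genes and -0.03 over all genes on the log2 scale, and 18 of 33 Hox genes had a difference above 0, against 45.7% of all genes.

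Between day 10 and day 20, 1 of 33 Hox genes passed, Hoxa5 (lower), against 14% of all genes (7.3% higher and 6.69% lower), and 3 had an unadjusted p under 0.05, against 29.3%. Between day 20 and day 30 limma called 0 of 33, against 0.335% of all genes (0.291% higher and 0.044% lower), and 0 had an unadjusted p under 0.05, against 10.9%. The F test over the 3 days called the same pair, 2 of 33, against 17.5% of all genes. No Hox gene was called for a difference between the earlier and the later interval, where 0.478% of all genes were called (0.154% with a higher and 0.324% with a lower later change) and 1 Hox gene had an unadjusted p under 0.05, against 15.5% of all genes.

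Hoxd8 had log2 signals of 4.83, 5.35 and 5.80 in the day 10 arrays numbered 1, 2 and 3. They were 6.33, 6.13 and 6.04 at day 20 and 6.25, 7.18 and 7.13 at day 30. All 6 later arrays lay above all day 10 arrays, while day 20 and day 30 overlapped through array 1 of day 30. The means were 5.33 ± 0.49, 6.17 ± 0.15 and 6.85 ± 0.52 (SD, n = 3). The difference between day 30 and day 10 was 1.53 (SE 0.30, 95% interval 0.83 to 2.22), a 2.88-fold rise on the signal scale (limma, Benjamini-Hochberg adjusted p = 0.010). The steps of 0.84 to day 20 (adjusted p = 0.10) and 0.69 from day 20 to day 30 (adjusted p = 0.47) were each not past the threshold. Without array 3 of day 10 the step to day 20 was 1.08 (adjusted p = 0.035, in a range of 0.035 to 0.38 over the alternatives).

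The second probe set of Hoxd8, which shares its probes among transcripts, gave the same order of days. It read 3.86, 4.02 and 4.55 at day 10, 5.06, 5.01 and 4.84 at day 20, and 4.87, 5.56 and 5.77 at day 30. Again all later arrays lay above all day 10 arrays. Its difference between day 30 and day 10 was 1.26 (limma, adjusted p = 0.012 over the 34945 probe sets with 1 gene symbol). In a fit without the 3 arrays numbered 2, chosen after the data were seen, the difference was of like size, 1.38, but was no longer called (adjusted p = 0.14), with calls over all genes at 1314 in place of 3841. Over 19 alternative settings the adjusted p of this difference ran from 0.0026 to 0.14, and 18 of them called it, among them 1 that left a single day 10 array.

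Hoxa5 had log2 signals of 7.85, 8.06 and 8.15 at day 10, 6.87, 7.13 and 7.40 at day 20, and 6.97, 6.78 and 6.84 at day 30. All day 10 arrays lay above all later arrays, and days 20 and 30 overlapped. The means were 8.02 ± 0.15, 7.14 ± 0.27 and 6.86 ± 0.10 (SD, n = 3). The brightest probe set of Hoxa5 fell by 0.88 to day 20 (SE 0.15, limma adjusted p = 0.0084). To day 30 it fell by 1.16 (SE 0.15, 95% interval -1.50 to -0.82, adjusted p = 0.0016), a 2.23-fold fall. The step from day 20 to day 30 was -0.27 (adjusted p = 0.57).

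The second probe set of Hoxa5 did not follow it. It read 4.07, 4.05 and 4.71 at day 10, 4.28, 4.18 and 4.37 at day 20, and 4.60, 4.12 and 4.46 at day 30, so the days overlapped. Its difference between day 30 and day 10 was 0.12 (limma, adjusted p = 0.74 over all probe sets). All of its signals lay below the reference level of 5.26, where an array may not follow a change in RNA. Little change in this set therefore does not show that the RNA was constant. The identifier of the brighter set ends in _x_at, the array maker's mark for sets with probes that may also match other sequences. Which of the sets reports Hoxa5 was not tested, so the fall belongs to the brighter set alone. Without the 3 arrays numbered 2 it was -1.10 with an adjusted p of 0.053. Over 20 alternatives the adjusted p ran from 0.00056 to 0.73, and 18 called it.

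**Figure D2:**
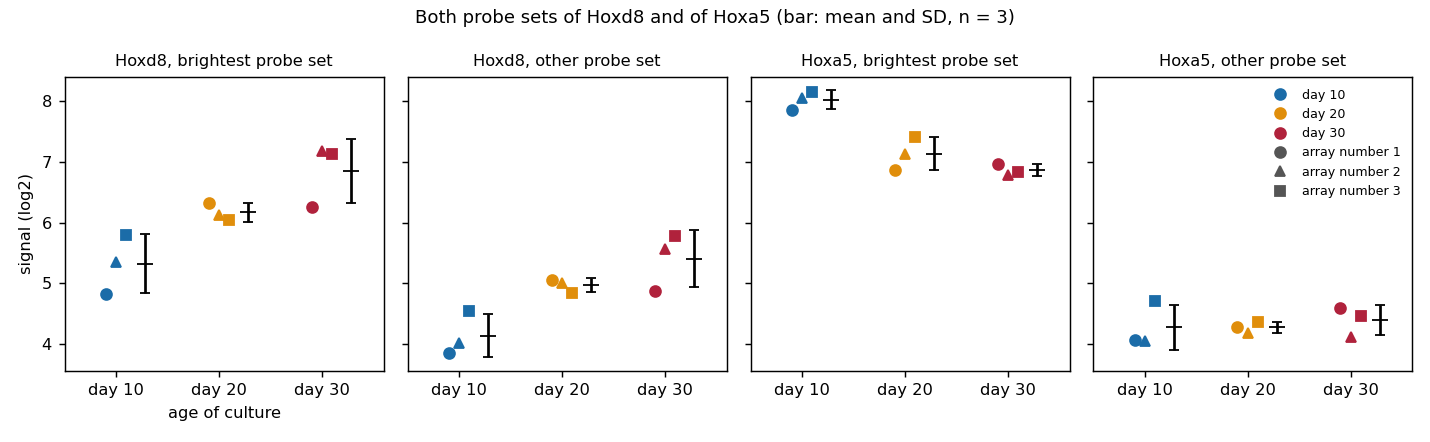
The log2 signal of both probe sets of Hoxd8 and both probe sets of Hoxa5 in the 9 arrays at day 10, 20 and 30, with bars for the mean and SD of 3 arrays. Both sets of Hoxd8 are lowest at day 10, with differences between day 30 and day 10 of 1.53 and 1.26; for Hoxa5 the brighter set differs by -1.16 and the other by 0.12.

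The paralogs of the called genes, their closest relatives in the other clusters, were not called. Hoxc8, the measured paralog of Hoxd8, lay between 3.20 and 3.52 in all arrays, with a difference from day 10 to day 30 of -0.05 (SE 0.10, 95% interval -0.29 to 0.19, limma adjusted p = 0.77). Hoxb5, a paralog of Hoxa5, had a difference of 0.02 (SE 0.16, 95% interval -0.36 to 0.40, adjusted p = 0.95). Hoxc5, the other one, had a difference of -0.03 (SE 0.12, 95% interval -0.32 to 0.26, adjusted p = 0.90). Hoxc8, Hoxb5 and Hoxc5 lay below the reference level of 5.26 in every array, where an array may not follow a change in RNA. Their intervals therefore hold for the signal and set no limit on expression. Next to Hoxd8 in the cluster, Hoxd9 had a difference of 0.30 (95% interval -0.05 to 0.66, adjusted p = 0.21) and its arrays overlapped between the days. Hoxa4, the neighbour of Hoxa5, also had a difference of 0.30 (95% interval 0.02 to 0.57, adjusted p = 0.12), at levels of 3.73 to 4.31. These levels were also below the reference level, so the same limit holds for Hoxa4.

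Without a test, the arrays of day 10 and day 30 did not overlap for 5 of 33 Hox genes, against 36.1% of all genes. Hoxd8 and Hoxc9 were higher at day 30, and Hoxa5, Hoxc4 and Hoxd13 were lower. Between day 10 and day 20 there were 4, Hoxd8 (higher) and Hoxa5, Hoxc4 and Hoxd13 (lower), against 31.8% of all genes. Between day 20 and day 30 there were 0, against 21.4% (11.7% higher and 9.72% lower). All of these shares were below those of all genes.

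The 3 others in these counts had small differences that limma did not call. Hoxc9, a thoracic gene, read 6.18, 6.22 and 6.03 at day 10 and 6.33, 6.40 and 6.48 at day 30, a difference of 0.26 (adjusted p = 0.078). Hoxc4 read 4.47, 4.51 and 4.48 at day 10 and 4.38, 4.37 and 4.29 at day 30, a difference of -0.14 (adjusted p = 0.25). Hoxd13, which patterns digits and hindgut, read 4.64, 4.50 and 4.42 at day 10 and 4.22, 4.38 and 4.41 at day 30, a difference of -0.19 (adjusted p = 0.20).

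By position, the widest bounds were those of 4 anterior genes, Hoxa2, Hoxa3, Hoxb2 and Hoxb3, and of the central gene Hoxb4. The 14 posterior genes had differences between day 30 and day 10 from -0.19 to 0.30, with a median of 0.00, and the outermost bounds of their 95% intervals were -0.40 and 0.66. Only 3 of the 14 were above the reference level on any day, and near the low end of the signal an array may not follow a change in RNA, so for the rest these bounds hold for the signal and set no limit on expression. The 7 anterior genes had differences from -0.09 to 0.57, with a median of 0.15, but bounds from -0.85 to 1.62. Hoxb1 (-0.28 to 0.10), Hoxd1 (-0.25 to 0.17) and Hoxd3 (-0.30 to 0.31) had intervals as narrow as posterior genes. They lay below the reference level in all 9 arrays, so the same limit holds for them. With paralog group 4 counted as anterior the median was 0.10. The 12 central genes, which include both called ones, had a median of -0.00.

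By cluster the medians were 0.03 for Hoxa, 0.04 for Hoxb, -0.03 for Hoxc and -0.00 for Hoxd. The 7 Hoxc genes had the narrowest bounds of the 4 clusters, with differences from -0.14 to 0.26 and bounds from -0.32 to 0.47. Only 2 of the 7 were above the reference level on any day, and for the rest the bounds set no limit on expression. Some Hox genes above the reference level on all 3 days had little change in signal. Hoxa9, a gene of blood progenitors, lay at 6.09 to 6.43 over the 9 arrays. Hoxc6 lay at 5.74 to 6.04 and Hoxa7 at 5.53 to 5.81, both genes of the thoracic region. The second probe set of Hoxa9 read 3.38 to 4.09, and the other Hoxc6 sets read 5.44 to 5.93 and 3.86 to 4.10. All of these signals lay below 7.12, the 99th percentile of the reference genes. Little change in them does not show that the RNA was constant.

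**Figure D3:**
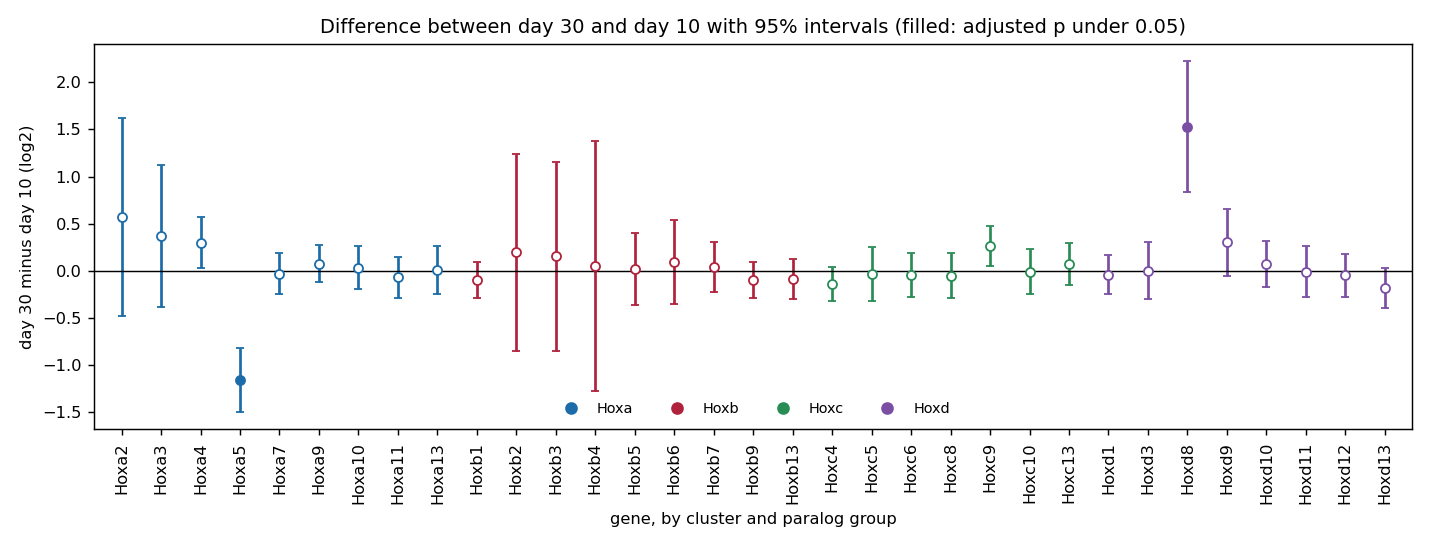
The difference in log2 signal between day 30 and day 10 for each of the 33 Hox genes with its 95% interval, coloured by cluster; filled points passed an adjusted p of 0.05. Hoxd8 (1.53) and Hoxa5 (-1.16) are filled, and the widest intervals are those of Hoxa2, Hoxa3, Hoxb2, Hoxb3 and Hoxb4.

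These wide intervals came from differences among arrays of the same day. The SD among arrays of a day, pooled over the 3 days, was 0.82 for Hoxb4, 0.65 for Hoxa2, 0.64 for Hoxb2, 0.62 for Hoxb3 and 0.46 for Hoxa3 on the log2 scale, against a median of 0.178 over all genes. Of all genes, 2.02% had a larger SD than Hoxb4 and 10.8% a larger one than Hoxa3. The median SD was 0.459 over the anterior, 0.146 over the central and 0.102 over the posterior Hox genes. Hoxb1, Hoxd1 and Hoxd3, the other anterior genes, were below the median of all genes. They also lay below the reference level in all 9 arrays, with means of 3.48, 3.38 and 4.13. A small SD there, as for the posterior genes below that level, holds for the signal and may not follow the RNA.

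**Figure D4:**
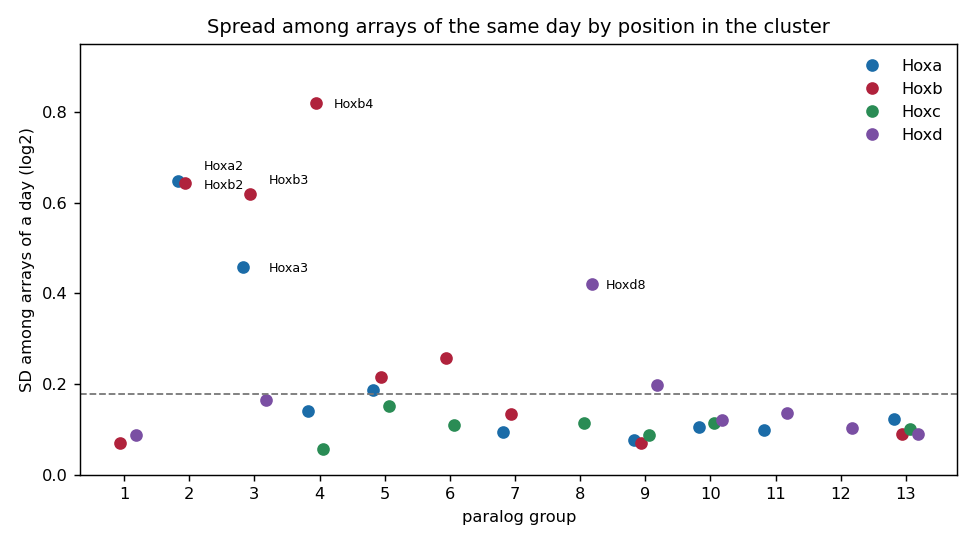
The SD of the log2 signal among arrays of the same day, pooled over the 3 days, against paralog group for the 33 Hox genes, coloured by cluster; the dashed line is the median of all genes, 0.178. Hoxb4 (0.82), Hoxa2 (0.65), Hoxb2 (0.64), Hoxb3 (0.62) and Hoxa3 (0.46) stand above the rest, and Hoxd8 (0.42) is the highest of the other genes.

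In Hoxb2, Hoxb3 and Hoxb4 the spread followed the array number, and the number that stood apart was 2 at every age. Hoxb2, a hindbrain gene needed for facial motor neurons, read 8.32, 8.86 and 8.79 in the arrays numbered 2 at day 10, 20 and 30. The other arrays read 7.91 and 7.33 at day 10, 7.67 and 7.69 at day 20, and 7.33 and 8.03 at day 30. The lowest array numbered 2 thus lay above the highest of the other 6.

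Hoxb3, a gene of the hindbrain and neck, read 7.04, 7.21 and 7.44 in the arrays numbered 2, against 6.05 to 6.42 in the other 6. Its second probe set read 7.32, 7.48 and 7.59 against 5.46 to 6.25. Hoxb4, known for expanding blood stem cells, read 6.30, 6.86 and 6.66 against 5.02 to 5.43, and its second probe set read 5.61, 5.80 and 5.58 against 4.70 to 4.85. Both probe sets of both genes therefore separated the same arrays. Hoxb5, a gene of the gut's nerve cells and of vessels, did so by a smaller margin at a low level, with 4.31, 4.46 and 4.58 against at most 4.29.

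Hoxa2, which patterns the second pharyngeal arch, was the other way round. It read 3.77, 3.49 and 3.74 in the arrays numbered 2, against 4.19 and 4.15 at day 10, 4.89 and 4.76 at day 20, and 4.85 and 5.24 at day 30. The 3 arrays numbered 2 were below the other 6. Hoxa3, which is needed for the thymus and parathyroid glands, overlapped in its brightest set, with 5.16, 4.92 and 5.21 against 5.10 to 6.01. A further Hoxa3 set read 4.28, 4.08 and 4.17 against 4.79 to 5.94 and did separate these arrays, while its other 2 sets, at 3.69 to 4.49, did not.

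In all, 4 of 33 Hox genes lay wholly higher in the arrays numbered 2 (1.12% of all genes) and 1 lay wholly lower (0.649% of all genes), 5 of 33 against 1.77% of all genes in either direction. For the arrays numbered 1 the counts were 0 higher (0.451% of all genes) and 4 lower (1.29%): Hoxb3, Hoxb5, Hoxc10 and Hoxd10, against 1.74% of all genes in either direction. For the arrays numbered 3 both counts were 0 (0.819% and 0.467%). The labels do not say what the numbers stand for, the separation was noticed in these data, and it was not tested.

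**Figure D5:**
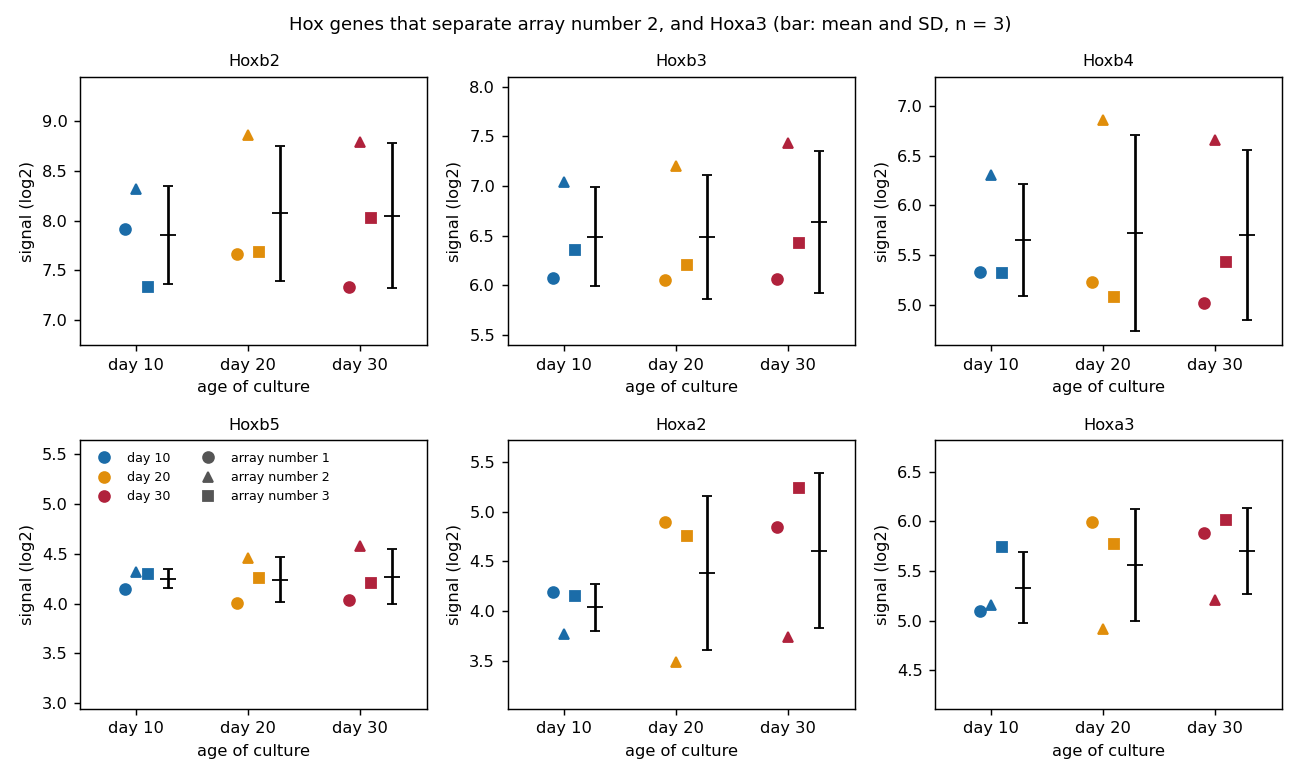
The log2 signal of Hoxb2, Hoxb3, Hoxb4, Hoxb5, Hoxa2 and Hoxa3 (brightest probe sets) at day 10, 20 and 30, with marker shape for the array number and bars for the mean and SD of 3 arrays; every panel spans the same number of log2 units. The arrays numbered 2 are highest at each age for the 4 Hoxb genes (6.30 to 6.86 for Hoxb4, against 5.02 to 5.43 in the others) and lowest for Hoxa2 (3.49 to 3.77, against 4.15 to 5.24).

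None of these genes was called between the ages. The difference between day 30 and day 10 was 0.20 for Hoxb2 (95% interval -0.85 to 1.24, limma adjusted p = 0.81) and 0.15 for Hoxb3 (-0.85 to 1.16, adjusted p = 0.85). It was 0.05 for Hoxb4 (-1.27 to 1.38, adjusted p = 0.97). It was 0.57 for Hoxa2 (-0.48 to 1.62, adjusted p = 0.43) and 0.37 for Hoxa3 (-0.38 to 1.12, adjusted p = 0.48). These intervals allow a 2-fold change (1 on the log2 scale), so none of these 5 genes is shown to be constant. In the fit without the 3 arrays numbered 2, Hoxa2 was called as higher at day 30 than at day 10, by 0.87 (limma adjusted p = 0.047). That fit leaves out the arrays in which Hoxa2 had been seen to be lowest, so the call is not independent of that choice. It rests on 4.19 and 4.15 at day 10 and 4.85 and 5.24 at day 30, all below the reference level of 5.26.

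With the ages pooled, the array controls overlapped between the arrays numbered 2 and the others. The spiked-in poly-A controls read 5.23 to 6.24 in the arrays numbered 2 and 5.04 to 6.75 in the other 6. The 18S ribosomal RNA signal read 10.27 to 12.35 against 12.07 to 13.44, with the lowest in array 2 of day 30, and the 3 prime minus 5 prime difference of beta-actin read 0.28 to 0.79 against 0.23 to 0.50. The same difference of Gapdh read -0.22 to 0.06 against -0.20 to -0.14. Within day 20 and within day 30, array 2 had the lowest 18S signal (12.35 and 10.27) and the highest beta-actin difference (0.59 and 0.79). It also had the highest Gapdh difference at these ages (-0.14 and 0.06). At day 10 array 2 was between the others for 18S and beta-actin and lowest for Gapdh. Over all arrays, array 2 of day 30 had the highest beta-actin and Gapdh differences, and also the highest Hoxd8 and Hoxb3 signals. Without that array Hoxd8 differed by 1.36 between day 30 and day 10 (limma adjusted p = 0.037) and Hoxa5 by -1.12 (adjusted p = 0.0078). Of 10 neural markers, Pax6 and Isl1 lay wholly lower in the arrays numbered 2. The mean of the neural list was 5.07 to 5.92 in those arrays and 5.47 to 6.22 in the others. These ranges pool the ages, and at each age the array numbered 2 had the lowest mean. It was 5.92, 5.07 and 5.13 at day 10, 20 and 30, where the highest means were 6.22, 5.61 and 5.65. The part of these values in the Hox differences was not tested.

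Some cell type markers moved with age beside Hoxd8 and Hoxa5. Between day 10 and day 30, 11.2% of all genes rose and 9.92% fell by the test. The mean of 12 cardiomyocyte markers was high in all arrays, at 11.96 to 12.70 at day 10, 12.50 to 12.80 at day 20 and 12.68 to 12.76 at day 30, and 1 of them, Tnni3, rose by day 30. The mean of 11 fibroblast and matrix markers rose from 7.14 to 7.81 at day 10 to 11.63 to 11.81 at day 30, 10 of the 11 rose by the test, and 0 of them lay below the reference level in all arrays. Of 9 markers of posterior and limb mesoderm 2 rose, Prrx1 by 4.36 and Meox2 by 1.88, and of 8 pluripotency markers 5 fell. Of 10 neural markers 3 fell, of 8 smooth muscle markers 1 rose and 2 fell, of 8 endothelial and 7 epicardial markers 1 each fell, and of 8 blood markers 2 rose, Cd34 and Runx1, while 5 lay below the reference level in all arrays. Of 8 endoderm and 8 skeletal muscle markers 1 each rose. A single call in lists of this size, as also for the cardiomyocyte, endothelial and epicardial markers, is near the share of all genes. The part of the cell type markers in the rise of Hoxd8 and the fall of Hoxa5 was not tested.

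Among the proteins that bind DNA with Hox proteins, 1 of 8 measured genes rose between day 10 and day 30 and 1 fell. Of all genes, 11.2% rose and 9.92% fell. The median difference of the 8 was -0.11. Pbx3 rose by 0.85 (limma adjusted p = 0.039) and Pbx2 fell by 0.82 (adjusted p = 0.038). Meis1, a partner of Hox proteins in heart and blood, was not called between the ages (difference -0.14, adjusted p = 0.85), and it was lower in the arrays numbered 2, at 7.91 to 8.23 against 8.68 to 9.49. Meis3 was higher in them, at 6.79 to 7.23 against 6.32 to 6.63. Meis1 and Meis3 were named outside the order of adjusted p because their arrays numbered 2 lay apart.

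Of 19 measured genes that act upstream of the clusters, in retinoic acid signalling and the Cdx family, 4 rose and 0 fell. This stands against 11.2% and 9.92% of all genes, and the median difference was 0.07. Those that rose were Aldh1a1, an enzyme that makes retinoic acid, by 4.39 (adjusted p = 0.00058), Dhrs3, which turns retinal back to retinol, by 2.98 (adjusted p = 0.0053), and the receptor genes Rarg by 1.76 (adjusted p = 0.00029) and Rxra by 0.81 (adjusted p = 0.017). Cdx1, Cdx2 and Cdx4, which activate central and posterior Hox genes in the embryo, had differences of 0.13, -0.26 and -0.02 and were not called.

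Of 23 measured Polycomb genes 2 rose and 10 fell, with a median difference of -0.34. Phc1 fell by 1.05 (limma adjusted p = 0.0022), Rnf2 by 0.56 (adjusted p = 0.0044) and Pcgf6 by 1.10 (adjusted p = 0.0055), while Cbx6 rose by 1.89 (adjusted p = 0.0034). Of 13 measured Trithorax-group genes, which keep Hox genes active, 0 rose and 3 fell, with a median of -0.28: Ash2l by 1.08, Dpy30 by 0.73 and Psip1 by 0.98 (adjusted p = 0.00098, 0.0026 and 0.010). The medians of all these lists stand beside -0.03 for all genes, and their counts beside 11.2% of all genes higher and 9.92% lower.

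Of 17 measured genes in or around the clusters, 0 rose between day 10 and day 30 and 2 fell, with a median of 0.02. The shares of all genes were 11.2% and 9.92%. Snx10, at the low-numbered side of Hoxa, fell by 1.19 (limma adjusted p = 0.0029) and Cbx5, near Hoxc, by 0.56 (adjusted p = 0.027). The homeobox genes Evx1 and Evx2 at the posterior ends of Hoxa and Hoxd had differences of -0.19 and -0.08, and the antisense transcripts Hoxa11os and Hoxd3os1 had -0.10 and 0.16, none of them called.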

How the data were processed

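Total RNA for the 9 arrays was amplified and labelled with biotin with a 3 prime in vitro transcription kit, per the labels' protocols. The authors deposited 1 log2 signal per probe set and array. How the values were corrected and normalized, and which logarithm was taken, is not given in the sources used here. Base 2 was inferred from their range (2.77 to 14.52). The array medians spanned 0.075, and the deposited values were used unchanged. Scanner files were not used here, so detection could not be judged probe by probe.

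Of 45101 probe sets, 64 array controls and those with no symbol (9160) or several (932) were left out, which left 34945 with 1 symbol. Of these, 34741 were found in the RefSeq table by gene identifier, with 0 differing symbols. The brightest probe set stood for each of 18193 genes, with 48 probe sets for the Hox genes, 11 of which have more than 1.

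In R 4.3.3, limma 3.58.1 fitted 1 mean per day (lmFit, then eBayes with 2.18 prior degrees of freedom beside 6 residual ones). Tests were two-sided, with Benjamini-Hochberg adjustment across the 18193 genes and a threshold of 0.05. With 9 arrays, their number limits the precision. On data simulated for day 30 against day 10 with 18193 genes, the fit found 57 of 100 genes with a 2-fold change and 92 of 100 with a 4-fold change. Of its 158 calls 9 were false, and it made 0 calls where nothing changed. Only these genes were changed, a smaller share than the 21.1% of all genes called in the data. The noise was drawn separately for each gene and array, without differences that follow the array number. The rates therefore hold for the simulated setting and do not give the power in these data.

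Samples were grouped by the day in the labels. Every Hox gene could be named, with full statistics for called members and their paralogs, and up to 4 genes of each other list in order of adjusted p. Some genes were named outside that order. Meis1, Meis3, Pax6 and Isl1 were named because their arrays numbered 2 lay apart, after the values were seen. The Cdx genes and genes around the clusters were also named outside it. Members, lists and tests were chosen with earlier results of these data known, and the lists support no result. Alternatives covered normalization, dim genes, probe sets, variance model, array weights, days fitted, the replicate block, each array left out and the threshold. Promoters came from the RefSeq table of 250 bases before each start.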

Additional observations from a re-analysis of the deposited data

How the results depend on the processing

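Of the counts and levels recomputed under the alternatives, 92 stayed within 1.5 times their value and 17 did not. The 92 include the counts of 0 that stayed 0 in every setting. These were for day 30 against day 20 and for the difference between the intervals, and they show no stability of a call. Day 20 against day 10 (1 Hox gene called) gave 0 with the mean of a gene's probe sets, 0 without probe sets ending in _s_at or _x_at, 3 with array weights (1 higher, 2 lower) and 1 to 2 with 1 array left out, the 2 arising without array 3 of day 10. Day 30 against day 10 (2 called) gave 1 when dim genes were filtered, which removes Hoxd8, and 1 without _s_at or _x_at sets. The F test (2 called) gave 1 under the dim filter, 1 with the mean of probe sets, 1 without _s_at or _x_at sets, and 1 to 2 with 1 array left out, the 1 arising without day 10 array 1 or 2 or day 30 array 2 or 3. Without the 3 arrays numbered 2, chosen after seeing the data, the counts changed. They were 0, 1 (Hoxa2) and 0 for day 20 against day 10, day 30 against day 10 and the F test. Day 30 against day 20 called 0 Hox genes in every setting run. The 99th percentile of the reference genes left 2 members above the level, where the 95th left 10. Hoxa5 reversed without _s_at or _x_at sets: its differences became 0.0019 (day 20 against day 10), 0.12 (day 30 against day 20) and 0.12 (day 30 against day 10), from the other probe set. Hoxd8 kept its direction in all 19 alternatives for day 30 against day 10 (1.28 to 2.03), the highest without day 10 arrays 2 and 3 together, also chosen after seeing the data, where the lone day 10 array, the lowest for Hoxd8, is assumed to vary like the other days. Apart from the causes named here, the cause was not tested. Without the arrays numbered 2, the calls over all genes fell to 353 for day 20 against day 10 and 1314 for day 30 against day 10. With array weights the former were 5612, and with each of 34945 probe sets tested by itself the latter were 6338.

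The replicate block changed no Hox call: it called 1, 0 and 2 Hox genes for day 20 against day 10, day 30 against day 20 and day 30 against day 10, and 2 in the F test. Over all genes it called 2417, 33 and 3614, against 2545, 61 and 3841. The numbers were not shown to pair the arrays: deviations of same-numbered arrays correlated from -0.149 to 0.434, with 3 of 9 pairs over 0.1, and in 4 of these 9 comparisons between days an array correlated best with the same number.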

Other observations

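Hoxb4, Hoxb3 and Hoxa2 were among the genes that set the 3 arrays numbered 2 furthest apart from the other 6. By the gap between both sets of arrays on the log2 scale, Hoxb4 had rank 4 and Hoxb3 rank 9 of the 204 genes wholly higher in those arrays, and Hoxa2 had rank 10 of the 118 wholly lower. Hoxb2 had rank 27 and Hoxb5 rank 151 of the 204. These genes were picked after their values were seen and no test was made. Ahead of Hoxb4 were Vsnl1, a neuronal calcium sensor, at 7.19 to 8.04 against 4.44 to 4.92, and Mab21l2, an eye and body wall development gene, at 8.47 to 9.44 against 6.09 to 6.76, with the transporter gene Slc4a10 at 5.78 to 7.27 against 3.76 to 4.67. The heart transcription factor genes Tbx5 and Tbx2 were also higher, Tbx5 at 7.13 to 7.70 against 5.74 to 6.35 and Tbx2 at 7.93 to 8.96 against 5.11 to 7.27.

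On the lower side stood several developmental regulators. Pax6, of the eye and forebrain, read 4.70 to 5.10 in the arrays numbered 2 and 6.89 to 8.62 in the others. Irx5, Irx2 and Irx3, of the Iroquois homeobox family, read 4.50 to 5.62 against 6.87 to 8.55, 5.27 to 5.62 against 6.68 to 8.40, and 4.96 to 6.97 against 7.73 to 9.44. Eya1, of the pharyngeal region, read 4.21 to 4.77 against 5.65 to 7.19. All of these were picked because their arrays numbered 2 lay wholly apart, so they keep their side at day 10, day 20 and day 30 by that choice.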
